A study of Solanum lycopersicum with 18 samples.

Results

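Green tomato fruits (Solanum lycopersicum) of the FUL1/FUL2-suppressed transgenic line TF18 were compared with fruits of the rin mutant at 35 DAP, the age that the labels call the G stage. The comparison took in every gene with at least 1 RPKM (reads per kilobase of gene, scaled to the read total of the library) in at least 3 of the 6 libraries concerned, which kept 18776 of the 35802 gene identifiers in the table. The 6 libraries, 3 per line, are part of 18 in all: TF18, rin and wild type at 35 DAP and at 45 DAP (P stage, pink fruits), with 3 libraries per group. TF18 and the wild type are labelled as the cultivar Ailsa Craig, and rin as strain LA3754 in the Ailsa Craig background. TF18 is 1 transgenic line, and the labels give neither its construct nor the promoter that drives it. All plants were kept in a glasshouse, lit for 16 h at 26 °C and dark for 8 h at 20 °C, and RNA was taken from fruits that had been sliced and frozen.

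RIN, FUL1 and FUL2 encode MADS-box transcription factors of tomato fruit ripening. FUL1 and FUL2 are close homologues of FRUITFULL of Arabidopsis and can bind RIN in protein complexes, and fruits of the rin mutant do not ripen normally. The 2 lines are thus altered in different members of one group of regulators, and the question put to these libraries is how their green fruits differ from each other. The table lists genes by Solyc identifier alone, and none of them (0 of 35802) had a match in RefSeq's gene table for assembly SLM_r2.1. Genes are therefore given by identifier with no name or role. The loss of FUL1, FUL2 or RIN transcripts was not checked in the libraries for the same reason. The 2 digits after "Solyc" are the chromosome, and identifiers are numbered along it.

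Read totals, solved from the whole-number steps of the RPKM values, were 15.1, 8.23 and 11.4 M for TF18 replicates 1, 2 and 3 and 12.4, 16.1 and 16.8 M for rin replicates 1, 2 and 3. Within a line the median SD of a gene's log2(RPKM + 1) was 0.24 in TF18 and 0.22 in rin. TF18 libraries correlated with each other at 0.907 to 0.951 (Pearson's r across the 18776 genes, which are not independent replicates) and rin libraries at 0.949 to 0.957. Between the lines r was 0.914 to 0.934 for TF18 replicate 1, 0.855 to 0.889 for replicate 2 and 0.818 to 0.855 for replicate 3. TF18 replicate 1 thus stood closer to rin replicate 1 (0.934) than to TF18 replicate 3 (0.907), and counts are given with and without it.

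**Figure D1:**
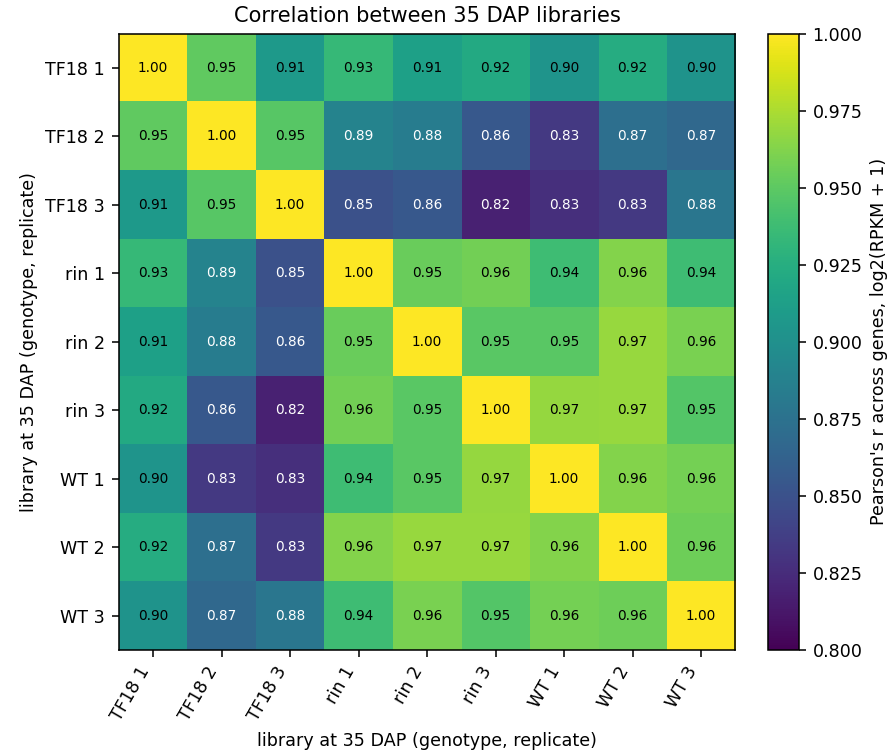
Pearson's r across 18776 genes of log2(RPKM + 1) between the 9 libraries of 35 DAP, with genotype and replicate on both axes and the value in each cell. The 6 rin and wild-type libraries form one block at 0.938 and above, and TF18 replicates 2 and 3 lie farthest from it.

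Of the 18776 genes, 598 were higher in TF18 than in rin at 35 DAP (3.18% of the genes tested) and 502 were lower (2.67%), 1100 genes or 5.86% in all. The test was limma on log2(RPKM + 1), with a Benjamini-Hochberg adjusted p under 0.05 and a log2 fold change of at least 1 in size required of every gene called higher or lower. The falls were larger than the rises at the median: the log2 fold change was 1.5 among the 598 genes that rose and -1.92 among the 502 that fell, beside 0.19 over all genes tested. A log2 fold change of 2 or more in size was reached by 127 of the risen and 233 of the fallen genes, and one of 3 or more by 24 and 97. RPKM values are relative to all reads of a library, and in RNA from whole fruits fewer cells of a type and less RNA per cell cannot be told apart. Nothing in the labels says that the triplicates came from separate plants, so p-values measure the spread between libraries, which may be technical.

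The balance of rises and falls depended on the scale. On the deposited scale 54.4% of the called genes were higher in TF18. After scaling by a trimmed mean of M values, which moved the median of all genes to -0.01, 387 genes were higher and 586 lower, so that 39.8% were higher. After quantile normalization the counts were 516 and 487, with 51.4% higher. Of the 598 genes higher in TF18, 387 were also called higher after the trimmed-mean scaling, and of the 502 lower genes 495 were also called lower. The libraries themselves showed the same dependence. All 3 TF18 libraries lay above all 3 rin libraries in 5181 genes (27.6%) and below them in 1651 (8.79%), whereas after the trimmed-mean scaling these counts were 2580 and 2817. Among called genes the 3 libraries of one line did not overlap with those of the other in 579 of the 598 risen genes (96.8%) and in 488 of the 502 fallen genes (97.2%). The calls were made on these same libraries and favour such a gap, so these shares are a description.

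The counts also moved with the fit and with single libraries. A fit of the 6 compared libraries alone, with its own estimate of the spread, called 272 genes higher and 238 lower, and a pseudocount of 5 RPKM in place of 1 left 323 and 275. With limma weights per library 897 genes were higher and 970 lower, more falls than rises. Without TF18 replicate 1, 798 genes were higher and 663 lower. Without TF18 replicate 2 the counts were 275 and 242, without TF18 replicate 3 they were 375 and 296, and without rin replicate 3 they were 321 and 329. In each of the 6 fits that left out 1 library, 220 of the 598 risen genes (36.8%) and 205 of the 502 fallen genes (40.8%) were called in the same direction. TF18 replicate 1 was the TF18 library nearest to rin in 413 of the 598 risen and 314 of the 502 fallen genes. The median fallen gene had 2.38, 0.811 and 0.728 RPKM in TF18 replicates 1, 2 and 3, against 8.41, 10.5 and 11.5 RPKM in rin replicates 1, 2 and 3. The median risen gene had 10.9, 15.6 and 16.8 RPKM in the TF18 replicates, against 3.12, 4.0 and 2.70 RPKM in the rin replicates.

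**Figure D2:**
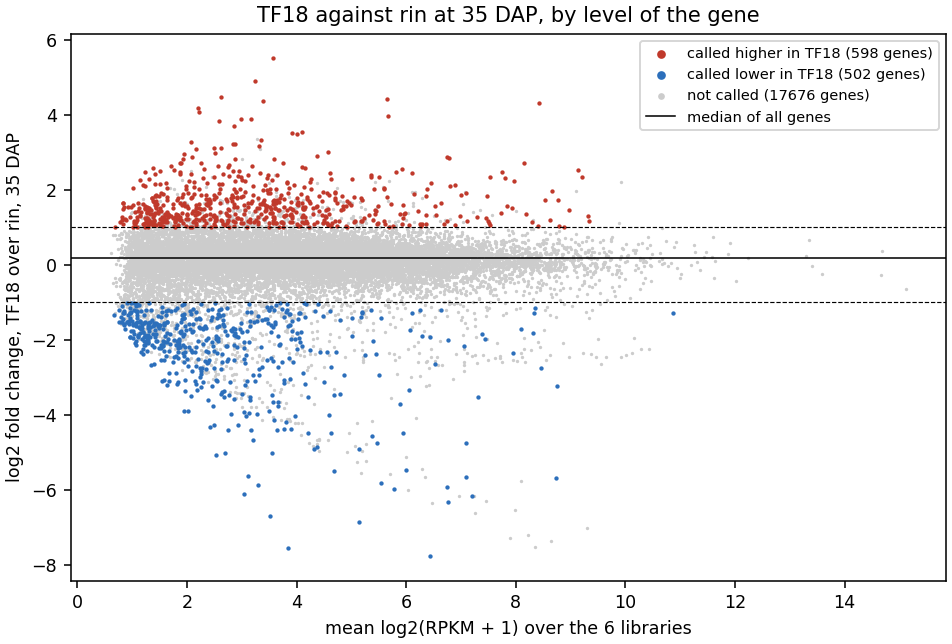
Log2 fold change of TF18 over rin at 35 DAP (y axis) against the mean log2(RPKM + 1) over the 6 libraries (x axis), with 1 point per gene, dashed lines at -1 and 1 and a solid line at the median of all genes, 0.19. Red points are the 598 genes higher in TF18, blue points the 502 genes lower in TF18, and grey points below the lower dashed line are genes with large but variable differences that were not called.

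Large falls outnumbered large rises among the genes that missed the threshold too. A log2 fold change of -2 or less was found in 291 genes that were not called, and one of 2 or more in 18. In 145 of those 291 genes all 3 TF18 libraries lay below all 3 rin libraries, as they did in 8.79% of all genes tested. The choice of large falls in these same libraries favours such a gap. The median SD of log2(RPKM + 1) of the 291 genes was 1.45 among TF18 libraries and 1.22 among rin libraries, against 0.42 and 0.54 among the 502 called falls. The median one had 12.9, 1.47 and 0.809 RPKM in TF18 replicates 1, 2 and 3, against 37.6, 41.5 and 49.1 RPKM in the rin replicates. TF18 replicate 1 was thus the highest of the 3 TF18 libraries at the median of these genes.

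Called genes were most frequent below a mean of 5 RPKM. In genes with a mean of up to 2 RPKM over the 6 libraries, 4.21% of 1616 were higher in TF18 and 4.76% were lower. At 2 to 5 RPKM the shares were 4.9% and 5.43% of 2614 genes, at 5 to 20 RPKM 3.59% and 2.7% of 6596, at 20 to 100 RPKM 1.87% and 1.12% of 6163, and above 100 RPKM 2.8% and 2.01% of 1787. Some genes met the minimum level through one line alone and so had to differ: 181 genes reached 1 RPKM in all 3 TF18 libraries and in no rin library, and 94 of them were called higher. The reverse held for 242 genes, of which 143 were called lower. Of the 16310 genes at 1 RPKM or more in all 6 libraries, 401 were higher and 188 lower in TF18.

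The largest rise among called genes with a mean of at least 10 RPKM in one line was in Solyc05g045670 on chromosome 5. It had 253, 113 and 16.4 RPKM in TF18, against 2.81, 0.36 and 0.0494 RPKM in rin and 4.78, 16.2 and 3.79 RPKM in the wild type of 35 DAP. Every TF18 library lay above every rin library, since only genes without overlap between the lines were eligible. The spread was wide within both lines. The log2 fold change was 5.50, with an SE of 0.94 and a limma adjusted p of 0.00242. Over the 3 libraries of a line 5963 reads fell on the gene in TF18 and 50 in rin.

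The second largest rise was in Solyc04g071790 on chromosome 4, with 17.3, 46.0 and 158 RPKM in TF18, against 0.473, 0.446 and 1.40 RPKM in rin. The wild type, at 2.14, 0.582 and 2.72 RPKM, lay near rin and far under TF18. The log2 fold change was 4.90, with an SE of 0.67 and a limma adjusted p of 0.000541.

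The largest fall was in Solyc08g080650 on chromosome 8, with 2.14, 5.74 and 8.49 RPKM in TF18, against 1875, 818 and 1309 RPKM in rin. The wild type had 586, 1235 and 947 RPKM, so that TF18 stood apart from both. The log2 fold change was -7.75, with an SE of 0.63 and a limma adjusted p of 6.41e-06. At 45 DAP the gene had 860, 1720 and 1467 RPKM in TF18, against 243, 646 and 1082 RPKM in rin, and the difference did not pass the test (log2 fold change 1.22, SE 0.63, limma adjusted p = 0.153).

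The next largest fall was in Solyc11g006250 on chromosome 11, with 0.0607, 0 and 0.0802 RPKM in TF18, against 108, 370 and 183 RPKM in rin and 347, 268 and 69.3 RPKM in the wild type. Only 2 reads fell on it in the 3 TF18 libraries together, against 11307 in the rin libraries. Scaled to the read totals, the pooled rin value was 4345 times the TF18 value, with an exact conditional 95% interval of 1202 to 35879 that covers counting error only. The log2 fold change, which the pseudocount holds down in a gene so low, was -7.55 (SE 0.64, limma adjusted p = 8.66e-06). Solyc11g006250 met the minimum level through rin alone and so had to differ, and its 35 DAP p-value is a description.

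**Figure D3:**
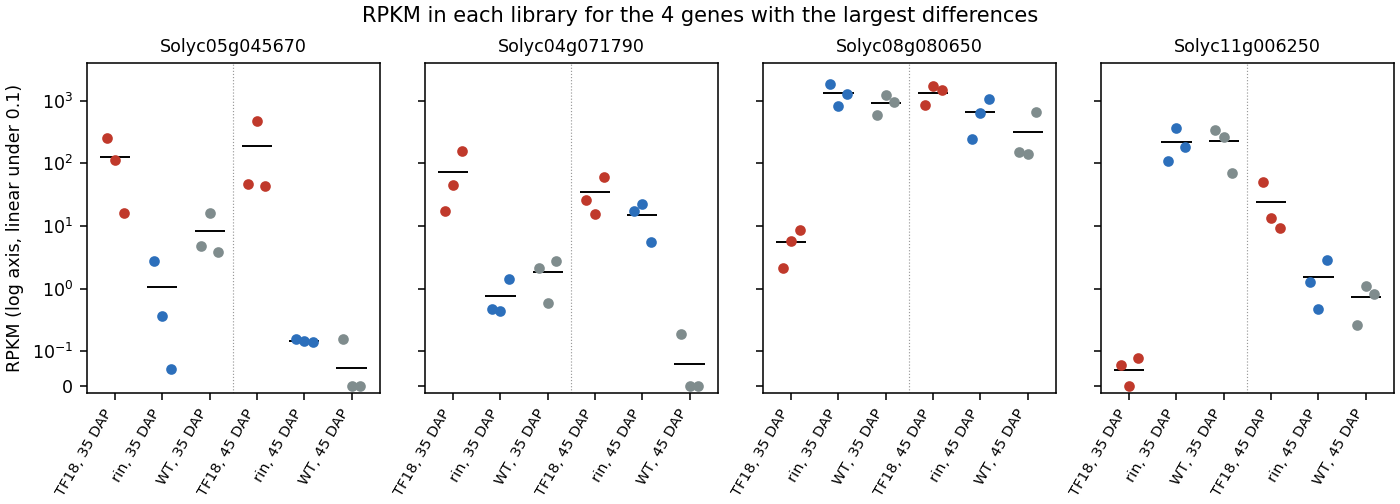
RPKM in each library (points, left to right replicates 1 to 3, with a bar at the mean) of the 2 genes with the largest rises and the 2 with the largest falls, for TF18 (red), rin (blue) and wild type (grey) at 35 DAP and, right of the dotted line, at 45 DAP. The y axis is a log axis that is linear under 0.1. At 35 DAP the 3 TF18 points of each gene lie clear of the rin points, as the choice of genes required. At 45 DAP Solyc08g080650 stands at 860 to 1720 RPKM in TF18.

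Some genes were nearly silent in one line. Such genes met the minimum level through the other line and so had to differ, and their counts are a description. At 35 DAP 69 genes of the comparison had at most 3 reads over the 3 TF18 libraries, of which 46 were called lower (2.67% over all genes) and 13 of those had no read at all. In rin 21 genes had at most 3 reads, of which 15 were called higher in TF18 (3.18% over all genes) and 5 of those had no read in rin. The TF18 libraries were the shallower ones, with a mean depth of 11.6 M ± 3.45 in TF18, against 15.1 M ± 2.36 in rin (SD, n = 3 each). The part of depth in these counts was not tested.

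Seen beside the wild type of 35 DAP, the rin libraries lay closer to it than the TF18 libraries did. TF18 differed from the wild type in 548 higher genes (2.92%) and 756 lower genes (4.03%), and rin in 12 higher genes (0.0639%) and 5 lower genes (0.0266%). These comparisons share libraries with that of TF18 and rin, so their values are set side by side as a description. The wild-type mean lay nearer to rin than to TF18 in 563 of the 598 risen genes (94.1%) and in 482 of the 502 fallen genes (96%). The same share over all genes tested was not worked out. Across all those genes rin libraries correlated with wild-type libraries at 0.938 to 0.969, and TF18 libraries at 0.827 to 0.924 (Pearson's r). Whether a wild type nearer to rin is particular to the called genes was therefore not tested. Against the wild type, the median log2 fold change of the 598 genes was 1.28 for TF18 and -0.20 for rin, and that of the 502 genes was -2.01 for TF18 and -0.12 for rin, beside 0.15 for TF18 and -0.05 for rin over all genes. TF18 was also called above the wild type in 368 of the 598 genes and below it in 439 of the 502.

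In 9 of the 1100 called genes it was rin that was called different from the wild type, and they are named here after their values were seen. Solyc01g108530 had 28.5, 25.8 and 29.4 RPKM in TF18, against 0.175, 0.269 and 0.451 RPKM in rin. The wild type had 21.3, 21.1 and 20.5 RPKM, close to TF18. The log2 fold change of TF18 over rin was 4.48 (SE 0.19, limma adjusted p = 5.02e-09), and at 45 DAP it was 4.39 (SE 0.19, limma adjusted p = 6.69e-09). This gene met the minimum level through TF18 alone, so its 35 DAP p-value is a description. Solyc07g022920 showed the same order, with 15.2, 14.0 and 15.7 RPKM in TF18, against 0.207, 1.49 and 1.78 RPKM in rin and 13.8, 14.7 and 13.6 RPKM in the wild type. Solyc05g009200 and Solyc10g086780 were also lower in rin than in both other lines, with log2 fold changes of TF18 over rin of 2.15 and 1.23 at 35 DAP. With a pseudocount of 5 RPKM these were 0.88 and 0.81, under the size required for a call. With a block for the replicate number the limma adjusted p was 0.0679 and 0.0854, and both calls were lost.

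The other 5 of these genes were higher in rin. Solyc05g050370 had no read in any TF18 or wild-type library of 35 DAP, against 8.81, 9.28 and 5.13 RPKM in rin, or 60 reads. Solyc05g040090 and its neighbour Solyc05g040100 likewise had 0 reads in the TF18 libraries of 35 DAP and 48 and 45 reads in the rin libraries. Limits on the ratio took 3 reads as what a count of 0 allows over the 3 TF18 libraries, and the rin reads as counted. Scaled to the read totals, rin was then 15.4-fold higher for Solyc05g050370, 12.3-fold for Solyc05g040090 and 11.5-fold for Solyc05g040100. Counting error in rin and the spread between libraries are not in these limits. With a pseudocount of 5 RPKM the log2 fold changes of Solyc05g040090 and Solyc05g040100 were -0.84 and -0.76 and no longer made a call. Solyc05g014500 had 11.2 to 13.3 RPKM in TF18, against 27.8 to 32.6 RPKM in rin and 8.55 to 9.91 RPKM in the wild type. Solyc07g042360 was the 1 gene above the wild type in both lines, with 2.94, 2.22 and 2.74 RPKM in TF18, against 12.9, 5.44 and 5.21 RPKM in rin and 0.754, 0.700 and 0.426 RPKM in the wild type. The calls of both genes rested on single libraries: the limma adjusted p of Solyc05g014500 was 0.0526 without rin replicate 1 and 0.0672 without TF18 replicate 2, and that of Solyc07g042360 was 0.119 without rin replicate 1, 0.124 without TF18 replicate 2 and 0.0822 without TF18 replicate 3. The call of Solyc07g042360 was also lost with pseudocounts of 0.1 and 5 RPKM and in a fit of the 6 compared libraries alone.

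A search over all 18 libraries, also made after values were seen, asked which genes had reads in one line alone, with at least 3 reads in each of its 6 libraries and at most 3 over the other 12 together. For rin 4 genes met this: Solyc05g040090, Solyc05g040100, Solyc05g050370 and Solyc07g055490, which is outside the 18776. All 4 had 0 reads in the other 12 libraries and 72 to 96 reads in the 6 of rin. For TF18 there were 4 as well: Solyc01g098300, Solyc06g030560, Solyc06g035560 and Solyc11g010830, which is outside the 18776. Solyc01g098300 had 66, 44 and 84 reads in TF18 at 35 DAP, against 0, 0 and 0 in rin, and 76, 26 and 42 reads in TF18 at 45 DAP, against 1, 0 and 2 in rin. The other 3 had 34 to 85 reads over the 6 TF18 libraries and 1 or 2 reads elsewhere.

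Chromosome 5 held the largest share of called genes. Of its 1247 genes, 57 were higher and 38 lower in TF18, or 7.62% called, against 5.04% (chromosome 8) to 6.37% (chromosome 3) on the other 11 chromosomes and 5.86% over all genes. The share on chromosome 5 was 3.77% without TF18 replicate 2, 4.89% without TF18 replicate 3 and 4.41% without rin replicate 3, whereas it was 9.38% without TF18 replicate 1. Of the 12 genes higher in rin than in wild type at 35 DAP (0.0639% of all genes), 7 were on chromosome 5, which held 1247 of the 18776 genes tested. No test was made of the position of genes.

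Some called genes were neighbours. Over all genes 5.86% were called, and how many neighbours that share alone would give was not worked out. Taken in the order of the identifiers among genes tested, 130 neighbouring pairs were both called, of which 49 were both higher in TF18, 56 both lower and 25 opposite. There were 87 runs of 2 or more neighbours called in one direction, with 192 genes or 17.5% of those called, and 15 runs of 3 or more, of which 5 were higher and 10 lower. Without TF18 replicate 2 there were 2 of these longer runs, in a fit that called 275 genes higher and 242 lower in all. There were 6 of them without TF18 replicate 3, and 9, 7 and 6 without rin replicates 1, 2 and 3. Calls over all genes were fewer in each of these fits too. The longest held 6 genes, Solyc01g007560 to Solyc01g007620 on chromosome 1, all lower in TF18, with 47 reads in all in TF18, against 624 in rin and 769 in the wild type. None of the 6 was called lower at 45 DAP. How reads shared by near-identical neighbours were counted is not given in the sources used here, so the split of reads among neighbours is uncertain.

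Within runs of 3 or more, the largest rise was in Solyc03g006250, with 125, 282 and 226 RPKM in TF18, against 11.4, 10.7 and 13.3 RPKM in rin and 23.3, 15.4 and 9.19 RPKM in the wild type. Its log2 fold change was 3.97, with an SE of 0.44 and a limma adjusted p of 8.15e-05. The largest fall was in Solyc07g064170, with 27.1, 46.9 and 155 RPKM in TF18, against 4021, 2125 and 3206 RPKM in rin and 1892, 2230 and 4127 RPKM in the wild type. Its log2 fold change was -5.67, with an SE of 0.70 and a limma adjusted p of 0.000234. In both genes the lines did not overlap, which the choice of genes required, and the wild type was near rin.

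The called genes were next read in fruits of 45 DAP. The 35 DAP fold changes do not use these libraries, but the tests at both ages share one estimate of each gene's spread over all 18 libraries, so the calls at 45 DAP are not independent of those at 35 DAP. At 45 DAP 2414 of the 18776 genes were higher in TF18 than in rin (12.9%) and 844 were lower (4.5%), so that 74.1% of those called were higher. With the trimmed-mean scaling the counts were 1605 and 1279 (55.7% higher), and after quantile normalization 1499 and 1092 (57.9% higher). Of the 598 genes that rose at 35 DAP, 328 (54.8%) were higher at 45 DAP too, 19 (3.18%) were lower and 251 (42%) were not called. Their median log2 fold change at 45 DAP was 1.11, beside 0.22 over all genes. With quantile normalization the share also higher at 45 DAP was 37.8%, and with the trimmed-mean scaling it was 42.9%.

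Most of the falls were not called lower at 45 DAP. Of the 502 genes that fell at 35 DAP, 77 (15.3%) were lower at 45 DAP, 88 (17.5%) were higher and 337 (67.1%) were not called. Over all genes 4.5% were lower and 12.9% higher at 45 DAP. Their median log2 fold change at 45 DAP was 0.17, near the 0.22 of all genes, and 284 of them had a positive value and 217 a negative one. With limma weights per library the share also lower at 45 DAP was 30.6%.

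**Figure D4:**
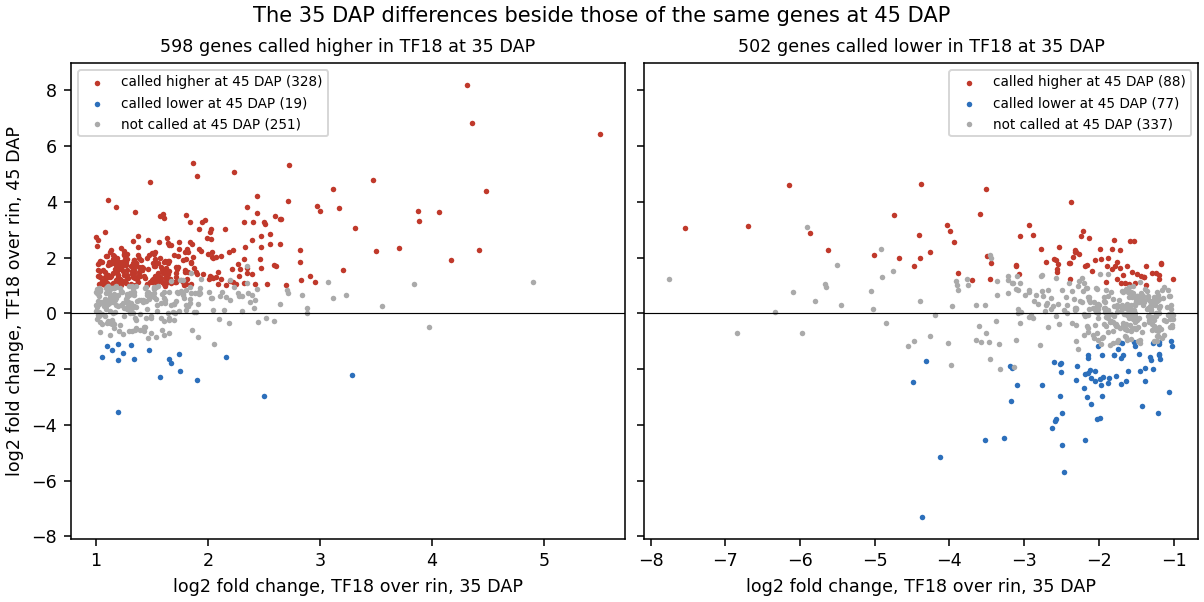
Log2 fold change of TF18 over rin at 45 DAP (y axis) against that at 35 DAP (x axis) for the 598 genes called higher (left) and the 502 called lower (right) at 35 DAP, with 1 point per gene coloured by its call at 45 DAP. Most points on the left lie above 0, with 328 called higher, whereas those on the right lie on both sides of 0, with 88 called higher and 77 lower.

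The difference between the ages was tested in the same model. Over all genes, the log2 fold change of TF18 over rin was higher at 45 than at 35 DAP in 1297 genes (6.91%) and lower in 654 (3.48%). Among the 502 fallen genes it was higher at 45 DAP in 282 (56.2%), lower in 4 and not called in 216. Among the 598 risen genes it was lower at 45 DAP in 110 (18.4%), higher in 19 and not called in 469. The 35 DAP values that chose these genes enter this contrast, and a choice of large differences favours smaller ones at the other age, so these shares are a description. Of the 77 falls called at both ages, 72 had no call for a difference between ages, and of the 328 rises called at both ages 305 had none.

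Solyc05g045670, described above, was also the largest rise among genes called in one direction at both ages. At 45 DAP it had 46.7, 479 and 43.1 RPKM in TF18, against 0.157, 0.143 and 0.141 RPKM in rin (log2 fold change 6.45, SE 0.94, limma adjusted p = 0.000186). The largest fall of that kind was in Solyc02g031920, with 19.1, 9.08 and 9.80 RPKM in TF18, against 170, 511 and 283 RPKM in rin at 35 DAP. The wild type had 96.3, 71.7 and 57.9 RPKM, between the lines. Its log2 fold change was -4.49 (SE 0.79, limma adjusted p = 0.00298) at 35 DAP and -2.46 (SE 0.79, limma adjusted p = 0.0289) at 45 DAP, where it had 33.5, 2.76 and 27.9 RPKM in TF18, against 52.4, 187 and 61.1 RPKM in rin.

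Calls of opposite sign at the 2 ages were made in 19 of the risen genes (3.18%, beside 4.5% of all genes lower at 45 DAP). They were made in 88 of the fallen genes (17.5%, beside 12.9% of all genes higher at 45 DAP). All of these genes were also called for the difference between ages, which opposite calls in the same model largely fix in advance. The largest rise among them was in Solyc12g006590, with 8.24, 13.7 and 15.5 RPKM in TF18, against 0.193, 0.298 and 0.571 RPKM in rin at 35 DAP (log2 fold change 3.28, SE 0.36, limma adjusted p = 8.11e-05). It met the minimum level through TF18 alone and so had to differ, and its 35 DAP p-value is a description. At 45 DAP it had 0, 0.530 and 0.358 RPKM in TF18, against 2.12, 8.48 and 5.70 RPKM in rin (log2 fold change -2.19, SE 0.36, limma adjusted p = 0.000465). The lines changed places without overlap at either age, which the choice of genes required at 35 DAP. The largest fall among them was Solyc11g006250, described above, which at 45 DAP had 50.2, 13.6 and 9.26 RPKM in TF18, against 1.27, 0.475 and 2.88 RPKM in rin (log2 fold change 3.07, SE 0.64, limma adjusted p = 0.00239). It was high at 35 DAP and low at 45 DAP in rin, and near 0 at 35 DAP and higher at 45 DAP in TF18.

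In share of the summed RPKM of a library, the 598 risen genes held 3.28% ± 0.31 in TF18 at 35 DAP, against 0.909% ± 0.048 in rin and 1.06% ± 0.08 in the wild type (SD, n = 3 each). The choice of genes fixes the order of TF18 and rin at that age. At 45 DAP the same genes held 2.59% ± 0.26 in TF18, against 1.26% ± 0.14 in rin and 0.935% ± 0.070 in the wild type (SD, n = 3 each), and the TF18 libraries lay above all others of that age. The 502 fallen genes held 0.464% ± 0.110 in TF18 at 35 DAP, against 2.94% ± 0.41 in rin and 3.12% ± 0.46 in the wild type (SD, n = 3 each). At 45 DAP they held 1.40% ± 0.07 in TF18, against 1.69% ± 0.16 in rin and 3.65% ± 0.87 in the wild type (SD, n = 3 each). A choice of genes with a large gap at 35 DAP favours a smaller one at 45 DAP. All TF18 and rin libraries of 45 DAP lay below those of the wild type.

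**Figure D5:**
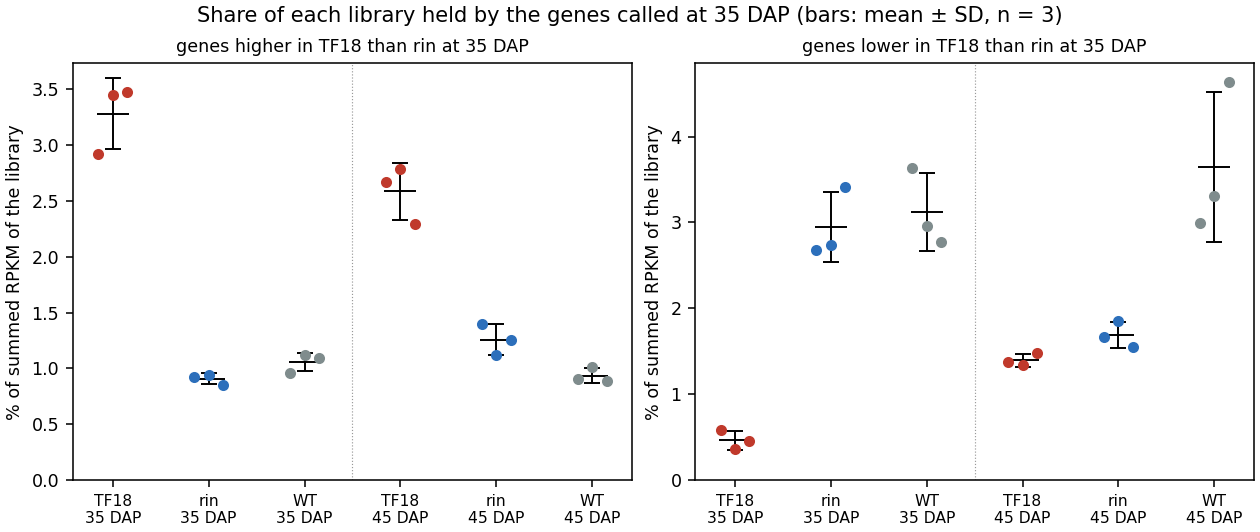
Share of the summed RPKM of each library (y axis, percent, from 0) held by the 598 genes higher (left) and the 502 genes lower (right) in TF18 than in rin at 35 DAP, for each of the 6 groups; points are libraries, and bars are the mean ± SD of 3. The fallen genes hold 0.464% in TF18 and 2.94% in rin at 35 DAP, and 1.40% in TF18 and 1.69% in rin at 45 DAP.

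Libraries were also compared by the number of genes they held. Genes at 1 RPKM or more numbered 18289 ± 122 in TF18 and 18535 ± 132 in rin (SD, n = 3 each; two-sided exact permutation p = 0.2). At 5 RPKM or more the order was the reverse, with 14328 ± 117 in TF18 and 14153 ± 182 in rin (SD, n = 3 each; two-sided exact permutation p = 0.3). Neither difference passed the test, which cannot go below 0.1 with 3 against 3 libraries. The 100 most abundant genes of a library held 27.5% ± 0.1 of the summed RPKM in TF18 and 32.8% ± 2.1 in rin (SD, n = 3 each; two-sided exact permutation p = 0.1). All 3 TF18 libraries, at 27.5% to 27.6%, lay below the rin libraries, at 30.6% to 34.6%. With those genes left out, the next 100 held 9.71% ± 0.68 of the rest in TF18 and 11.0% ± 0.34 in rin (SD, n = 3 each; exact permutation p = 0.1).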

How the data were processed

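The authors deposited 1 table of RPKM values for 35802 identifiers, with 1 column per library named by its title (0 columns without a sample). CASAVA 1.8.1 and Bowtie2 are named in the submitters' processing notes without their roles. Genome build, annotation and counter: not given in the sources used here. Reads were solved from the steps of the values, of which 100.0% above 0 came out whole within 0.02 reads (28612 genes). They served for depth, read totals of genes and runs, pooled ratios, near-silent genes and genes with reads in one line alone. Differences were tested with limma 3.58.1 in R 4.3.3 on log2(RPKM + 1), with 6 group means over all 18 libraries, a variance trend and Benjamini-Hochberg adjustment over 18776 genes. Fold changes are on that scale and understate those of low genes. Other steps used Python 3.11.15, numpy 2.4.6, pandas 2.3.3, scipy 1.17.1 and matplotlib 3.10.9. The script was tested on simulated data.

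The genes named by rule were the 2 largest rises and 2 largest falls among called genes without overlap and with a mean of at least 10 RPKM in one line, and the largest of each for 3 further questions (called alike at 45 DAP, called opposite at 45 DAP, in a run). Genes and comparisons were chosen with earlier results of these data known. Gene lists by name were left out because identifiers could not be paired with names. Alternatives were other scalings, pseudocounts, filters, samples, weights, a block and leaving out each library.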

Additional observations from a re-analysis of the deposited data

Results flagged for a closer look

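The difference between TF18 and rin changed with age by the limma test of that change (45 minus 35 DAP, on the log2 scale) in 1297 genes upward and 654 downward. Among the named genes it changed by 10.61 in Solyc11g006250, 8.97 in Solyc08g080650 and 6.71 in Solyc07g064170, which were lower in TF18 at 35 DAP. It changed by -5.47 in Solyc12g006590, -4.47 in Solyc03g006250 and -3.79 in Solyc04g071790, which were higher in TF18 at 35 DAP. All 6 were chosen for large values at 35 DAP, which favours a change toward 0 at the other age. Solyc12g006590 and Solyc11g006250 were also picked among genes with calls of opposite sign at the 2 ages. Such calls largely fix the change with age in advance.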

How the results depend on the processing

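Counts of genes called higher and lower in TF18 at 35 DAP (main 598 and 502) were as follows. They were 387 higher with the trimmed-mean scaling, 323 and 275 with a pseudocount of 5 RPKM, 370 and 276 with a minimum of 5 RPKM, 272 and 238 in a fit of the compared groups only, and 970 lower with library weights. They ran from 275 to 798 and from 242 to 663 without single libraries. With a replicate block they were 76 and 84. Same-numbered TF18 and rin libraries deviated together at 0.00073, 0.12 and -0.18, and those of unlike number at -0.32 to 0.33. Whether the numbers pair the libraries was not tested, and the labels do not say what a number marks. At 45 DAP (2414 and 844) the counts were 1605 and 1279 with the trimmed-mean scaling, 1499 higher after quantile normalization, 1099 higher with a pseudocount of 5 RPKM and 1434 lower with library weights, and ran from 1924 to 2732 and from 585 to 882 without single libraries. Changes with age (1297 and 654) were 822 upward with a pseudocount of 5 RPKM and 2140 and 1287 with library weights, and ran from 898 to 1330 and from 451 to 800.

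The share of rises also higher at 45 DAP (54.8%) was 42.9% with the trimmed-mean scaling, 37.8% after quantile normalization, 48.4% and 44.3% with pseudocounts of 0.1 and 5 RPKM, 48.2% in the compared groups and 47.4% with the replicate block, and ran from 44.1% to 58.7%. The share of falls also lower (15.3%) was 18.9% with the trimmed-mean scaling, 20.5% after quantile normalization and 30.6% with library weights, and ran from 11.6% to 17.9%. The share of falls then higher (17.5%) was 13.5% and 12.3% under the 2 scalings, 14.2% with a pseudocount of 5 RPKM and 24.6% with a minimum of 5 RPKM, and ran from 12.7% to 24.4%. The share called on chromosome 5 (7.62%) was 6.17% with the trimmed-mean scaling and ran from 3.77% to 9.38%, and runs of 3 or more (15) ran from 2 to 17. Calls over all genes moved in the same fits. The difference in detected genes, TF18 minus rin, was -246 at 1 RPKM (-318 to -188 without single libraries) and 175 at 5 RPKM (exact permutation p = 0.3). The difference in the share of the 100 most abundant genes ran from -6.39 to -4.36 percentage points. The cause of these shifts was not tested. For 17 of the named genes, 187 of 204 alternatives kept the call, 17 in 6 genes lost it and 0 turned the direction. The other filters and the library weights were not among these alternatives. With the replicate block the calls of Solyc05g009200, Solyc05g014500, Solyc05g040100, Solyc07g042360 and Solyc10g086780 were lost. Depth limits the near-silent genes, since a count of 0 allows up to 3 reads.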
